A study of Mus musculus with 6 samples.

Results

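The DNA replication and S phase genes are a set of 38 genes that encode the proteins which license origins, unwind and copy DNA, supply deoxynucleotides and, as cyclin E, start S phase. Their RNA was compared in cultured marrow stroma from wild-type animals (WT) and from a knockout of the long non-coding RNA NONMMUT002667 (KO). A member was any non-control probe whose gene name in the scanner files is one of the 38, which gave 69 probes. Of the 38 members, 37 were measured well enough to be tested, out of 15237 named genes tested in all. Each was represented by its brightest tested probe, and all 37 were well above background on all 6 arrays. Ccne2, one of the cyclin E genes, was not tested.

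There were 3 WT and 3 KO samples, each on 1 Agilent array with 1 colour. The RNA came from femur cells sorted as Sca-1+ CD29+ CD45- CD11b- and then cultured to the first passage. The labels give no strain, age or knockout allele, and do not say whether a sample is 1 animal, so a p-value here covers the spread of 6 samples, which may be technical in part. All 6 samples are labelled male. The description and extraction fields of the labels speak of irradiated human blood, while the titles, source names and organism field speak of mouse stromal cells, and the latter were followed.

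On each array 49.0% to 56.7% of the non-control spots were well above background, with the 3 KO arrays (49.0% to 53.0%) below the 3 WT arrays (54.3% to 56.7%). All 6 arrays lay on 1 slide and were scanned together, with the WT arrays in row 1 and the KO arrays in row 2, so slide row and genotype cannot be told apart. The sort markers Ly6a (Sca-1) and Itgb1 (CD29) were measured on all 6 arrays, but so were Ptprc (CD45) and Itgam (CD11b), which the sort excluded. Of 25 macrophage and monocyte markers, 24 were well above background on every array, as were 14189 of the 15237 genes tested. The median log2 signal of these 25 markers, relative to the array's 75th percentile, was 4.81 to 5.18 by array. It was 1.94 to 2.16 for 16 stromal progenitor markers and 0.47 to 0.52 for all genes tested. The label and the sex-linked RNA differ on 2 arrays: Xist, the RNA of the inactive X chromosome, was well above background on WT replicate 3 (-0.53) and KO replicate 1 (-0.36) and on no other array, and Eif2s3y, a Y-linked gene, was well above background on the other 4 arrays only. Results are therefore also given without these 2 arrays, and with a term for Xist signal on all 6 arrays.

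DNA replication starts when the origin recognition complex (ORC), Cdc6 and Cdt1 load the ring-shaped MCM helicase onto origins in G1. Kinases that include cyclin E with Cdk2 then activate it by adding Cdc45 and the GINS complex. Primase and the replicative polymerases copy the strands, held to the DNA by the PCNA clamp that replication factor C loads, and transcription of many of these genes is driven by E2F factors late in G1. In bone marrow stroma, such transcripts are known as marks of cells that are cycling.

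A level is the log2 processed signal of a probe after subtraction of the 75th percentile of its array, and a difference is KO minus WT on that scale. No member passed the test over all genes (limma, adjusted p under 0.05; 12 of 15237 genes, 0.0788%, did so). The differences were nonetheless mostly of 1 sign and small: 34 of 37 members had a positive difference (55.8% of all genes did), with a median of 0.22, which is 1.17-fold, against 0.021 for all genes tested. At an unadjusted limma p under 0.05, 13 members were higher in KO and 0 lower (35.1% of members), where 6.88% of all genes were higher and 8.05% lower. In 20 members all 3 KO values lay above all 3 WT values, and in 0 below, while 12.0% of all genes had KO above WT and 10.4% below. On the brightest probe, the 95% limma interval of every tested member lay below 1, so a rise of 2-fold or more lay outside all 37 intervals. A dimmer Mcm10 probe (difference 0.69) had an interval of 0.20 to 1.18, which takes in a 2-fold rise. No test was made over the list. In such a bulk sample, a change in the number of cells that express a gene and a change in its RNA per cell cannot be told apart.

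**Figure D1:**
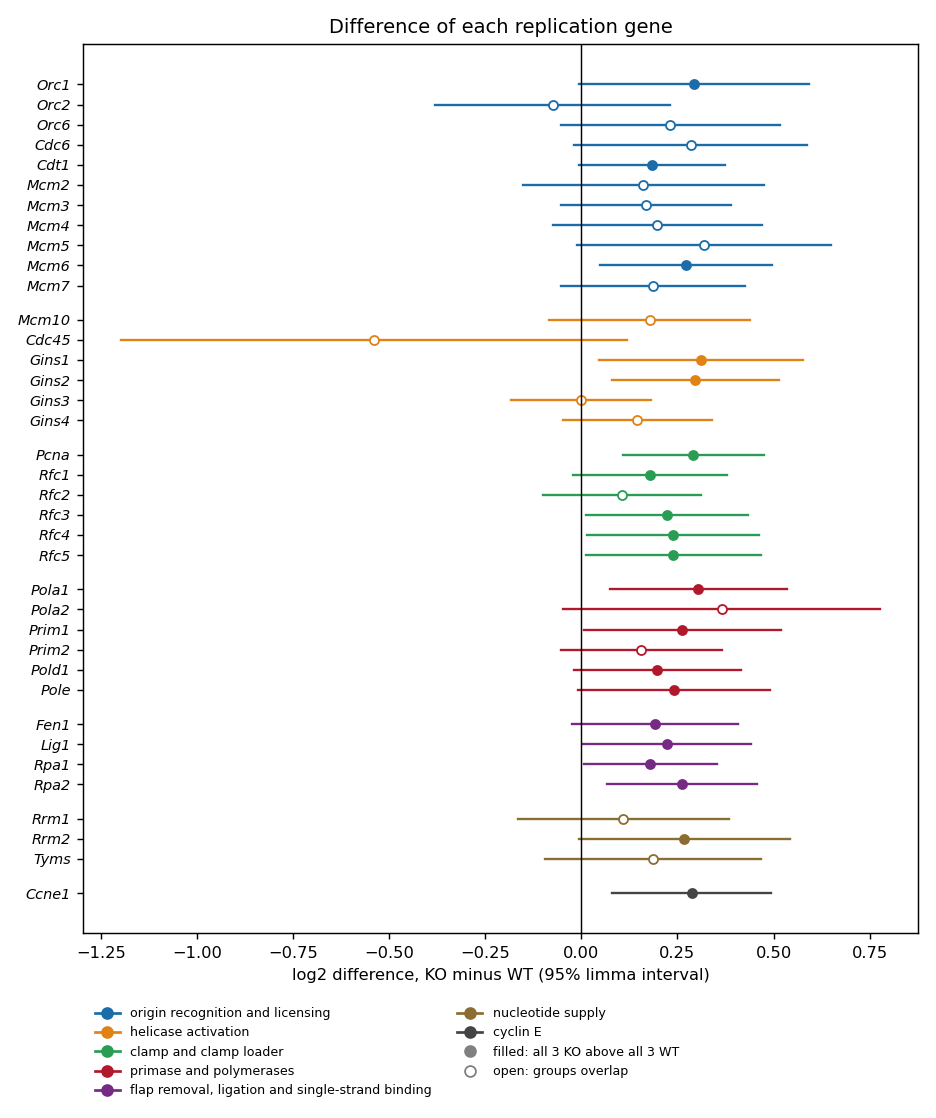
Difference of each of the 37 tested members (x axis, log2, KO minus WT, with its 95% limma interval), grouped and coloured by role. Filled points mark the 20 members in which all 3 KO arrays lay above all 3 WT arrays, and 34 of the 37 points lie above 0.

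The 6 arrays did not contribute evenly. WT replicate 3, which is also 1 of the 2 arrays with Xist signal, held the lowest value of 29 of the 37 members and the highest of none. Taken as the level minus the gene's own mean over 6 arrays, the median of the members was -0.0068 on WT replicate 1, -0.085 on WT replicate 2 and -0.23 on WT replicate 3. It was 0.057, 0.079 and 0.14 on KO replicates 1, 2 and 3. The KO medians thus all lay above the WT medians, yet WT replicate 3 minus WT replicate 1 had a median of -0.22 over the members, the same size as the median difference between KO and WT. From WT replicate 1 the median step to KO replicates 1, 2 and 3 was 0.065, 0.12 and 0.15, with 30, 28 and 31 of 37 members higher in the KO array. From WT replicate 2 it was 0.16, 0.19 and 0.24, with 31, 33 and 34 members higher. From WT replicate 3 it was 0.30, 0.31 and 0.35, with 36, 36 and 37 members higher, so all 9 steps were positive and those from WT replicate 1 were the smallest.

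Without WT replicate 3 the median difference of the members was 0.16 with 34 of 37 still positive, and 2 of 37 members (5.41%) were higher at an unadjusted limma p under 0.05, near the 5.16% of all genes. Without both arrays that carry Xist signal the median was 0.18, with 3 of 37 members (8.11%) higher at that p against 4.89% of all genes. With all 6 arrays kept and a term for Xist signal in the fit, 16 of 37 (43.2%) were higher at that p, against 7.18% of all genes. All KO values lay above all WT values in 20 members without WT replicate 3 (16.9% of all genes) and in 25 without both arrays (24.5% of all genes). The count at an unadjusted p under 0.05 also fell when other arrays were left out, to 4 without KO replicate 3 (5.1% of all genes higher), 6 without KO replicate 2 (5.26%) and 8 without WT replicate 2 (4.72%). Pcna was at an unadjusted p under 0.05 both without WT replicate 3 and without both Xist arrays, and so was Cdc45, on the lower side. Without KO replicate 1, 11 of 37 members were higher at that p (6.6% of all genes) and 25 had all KO values above WT (19.6% of all genes). With each array centred on its median in place of the 75th percentile, 5 of 37 were higher at that p (4.49% of all genes) and 8 had all KO values above WT (7.9% of all genes).

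**Figure D2:**
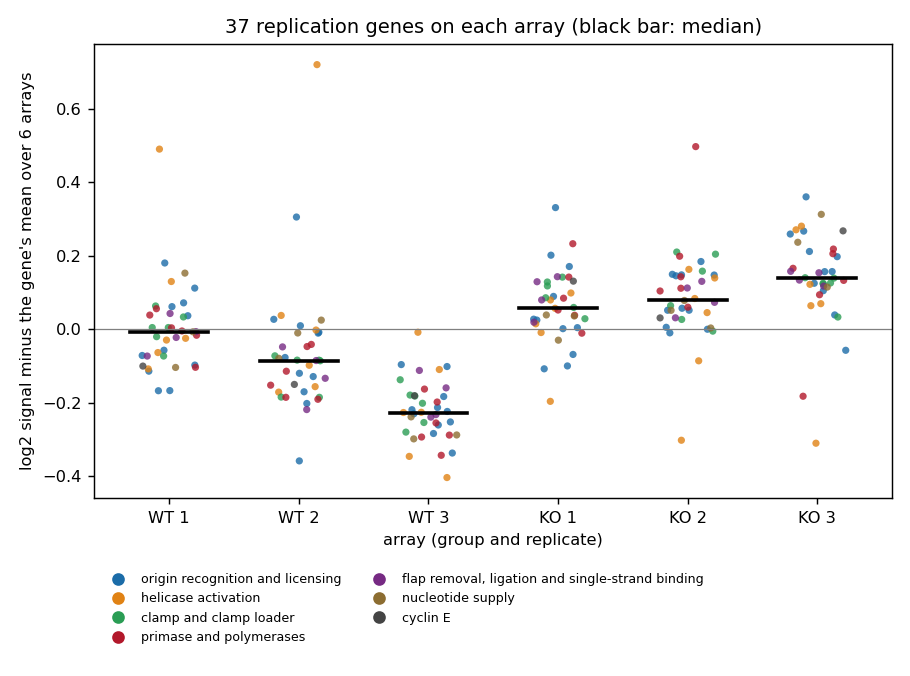
Level of each of the 37 tested members minus its own mean over 6 arrays (y axis, log2), by array (x axis), coloured by role, with the median as a black bar. The bar is lowest on WT replicate 3 (-0.23) and highest on KO replicate 3 (0.14), and WT replicate 1 (-0.0068) lies closest to the KO arrays.

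Pcna, the sliding clamp that tethers polymerases to DNA, had the smallest p of the members. Its levels were 5.33, 5.22 and 5.23 in WT replicates 1 to 3 and 5.49, 5.62 and 5.54 in KO replicates 1 to 3, with no overlap. The difference was 0.29 (SE 0.077, 1.22-fold, n = 3 each; limma adjusted p = 0.16). It was the 1 member that had an unadjusted p under 0.05 in all 19 alternative analyses, between 0.26 and 0.33. Its probe lies on chromosome 2 at 132075420 to 132075557 (mm9), a span wider than the probe. All probe positions here are those of the files, and what part of a transcript they cover was not looked up.

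The clamp loader genes had small positive differences. Rfc1, the large subunit of replication factor C, and the small subunit genes Rfc2 to Rfc5 had differences from 0.11 (Rfc2) to 0.24 (Rfc4 and Rfc5). All 3 KO arrays lay above the WT arrays for Rfc1, Rfc3, Rfc4 and Rfc5 but not for Rfc2, in which WT replicate 1 (2.65) lay above KO replicates 2 and 3 (2.58 and 2.62). Rfc3, Rfc4 and Rfc5 were among the 13 members at an unadjusted p under 0.05 (limma adjusted p = 0.296 to 0.304).

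Ccne1 encodes cyclin E1, the partner of Cdk2 at the start of S phase. Its levels were 2.21, 2.16 and 2.13 in WT and 2.44, 2.34 and 2.58 in KO, without overlap (difference 0.29, SE 0.087; limma adjusted p = 0.203; chromosome 7, 38882937 to 38882960). Ccne2, which encodes cyclin E2, had 1 probe, at -4.35, -4.01 and -3.37 in WT and -4.45, -3.93 and -3.65 in KO. It was well above background on 2 WT arrays and 1 KO array, and its groups overlapped across their whole range. Cdk2 itself, the kinase of the pair, stood 0.34 higher in KO (SE 0.11, limma adjusted p = 0.217).

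Among the 11 licensing genes, all but Orc2 had a positive difference (median 0.20), and groups did not overlap for Orc1, Cdt1 and Mcm6. Mcm6, a subunit of the hexameric helicase, was the 1 licensing gene at an unadjusted limma p under 0.05. Its levels were 4.72, 4.68 and 4.58 in WT and 4.80, 4.94 and 5.05 in KO, without overlap (difference 0.27, SE 0.094; limma adjusted p = 0.247; chromosome 1, 130228178 to 130228237). A dimmer second Mcm6 probe gave 0.021, with overlap. The other subunit genes Mcm2, Mcm3, Mcm4, Mcm5 and Mcm7 had differences from 0.16 (Mcm2) to 0.32 (Mcm5), and their groups overlapped. For Mcm2 and Mcm3, WT replicate 1 lay above at least 1 KO array, as it did for 14 of the 37 members, against 8 for WT replicate 2 and 2 for WT replicate 3. Of the dimmer Mcm3 probes, 1 gave 0.16 without overlap, and the others gave 0.12 and 0.058 with overlap.

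The genes that load the helicase were not all of 1 sign. Cdc6, the ATPase that recruits MCM with Cdt1, had a difference of 0.28 (SE 0.13) with overlapping groups. Cdt1 had levels of 3.46, 3.62 and 3.53 in WT and 3.65, 3.77 and 3.73 in KO, which did not overlap (difference 0.18, SE 0.080; limma adjusted p = 0.334). Of the ORC subunits, Orc1 had 0.29 (SE 0.12) without overlap, Orc6 0.23 (SE 0.12) and Orc2 -0.075 (SE 0.13), both with overlap. Orc2 was high on WT replicate 2 (0.51) and lay between 0.09 and 0.25 on the other 5 arrays.

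Of the genes that activate the helicase, Gins2 and Gins1 separated the groups on the brightest probe and the others did not. Gins2, a GINS subunit, had levels of 1.72, 1.63 and 1.56 in WT and 1.86, 1.87 and 2.07 in KO (difference 0.30, SE 0.091; limma adjusted p = 0.21; chromosome 8, 123105259 to 123105318). Its second probe gave 0.29, also without overlap. Gins1, its partner subunit, had levels of 1.04, 0.97 and 0.72 in WT and 1.12, 1.20 and 1.34 in KO (difference 0.31, SE 0.11; limma adjusted p = 0.259). Neither gene had overlapping groups, and the second Gins1 probe gave 0.28. Gins4 had 0.15 and Gins3 -0.00049, with a 95% limma interval of -0.18 to 0.18 for Gins3. Mcm10, which holds the activated helicase at the fork, had 0.18 (SE 0.11) with overlap. A dimmer Mcm10 probe gave 0.69 (SE 0.21), without overlap.

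Cdc45, the helicase cofactor, was the member with the largest negative difference, and it rested on 2 WT arrays. Its levels were -0.74 and -0.51 on WT replicates 1 and 2, but -1.63 on WT replicate 3, and -1.43, -1.53 and -1.54 in KO. The difference was -0.54 (SE 0.28; limma adjusted p = 0.414). The second Cdc45 probe gave 0.076, with levels from -2.97 to -2.37, so the 2 probes differed in sign.

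Primase and polymerase genes gave the highest median of the roles with more than 1 tested gene, 0.25 over 6 genes. Pola1, the catalytic subunit of polymerase alpha, had levels of 0.84, 0.67 and 0.60 in WT and 0.90, 1.06 and 1.08 in KO (difference 0.30, SE 0.096; limma adjusted p = 0.219; chromosome X, 90550189 to 90550248). The groups did not overlap, and its second probe gave 0.40, also without overlap. Prim1, the small primase subunit, had 0.26 (SE 0.11) without overlap, and Prim2, the large one, 0.16 with overlap. A dimmer Prim2 probe gave 0.34, without overlap. Pold1 and Pole, the catalytic subunits of the polymerases that extend the lagging and leading strands, had 0.20 and 0.24, both without overlap. Pola2, the second subunit of polymerase alpha, had the largest positive difference of the members, 0.37 (SE 0.17), but KO replicate 3 (-2.78) lay below 2 of the WT arrays. The other tested Pola2 probes, both dimmer, gave 0.39 and 0.42 without overlap.

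All 4 genes for single-strand binding, flap removal and ligation separated the groups. Rpa2, a subunit of the complex that coats single-stranded DNA, had levels of 0.35, 0.24 and 0.14 in WT and 0.51 on each KO array (difference 0.26, SE 0.082; limma adjusted p = 0.212; chromosome 4, 132333990 to 132334049). Rpa1, its large partner, had 0.18 (SE 0.072). Fen1, the nuclease that trims Okazaki fragments, had 0.19, and Lig1, the ligase that joins them, 0.22. A second Lig1 probe gave 0.36, with overlap.

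Of the 3 nucleotide supply genes, 1 separated the groups. Rrm2, the S phase subunit of ribonucleotide reductase, had levels of 3.87, 3.96 and 3.68 in WT and 4.01, 4.02 and 4.28 in KO (difference 0.27, SE 0.11; limma adjusted p = 0.332). The groups did not overlap. Rrm1, the large subunit, had 0.11 (SE 0.11) and Tyms, which makes thymidylate, 0.19 (SE 0.12), both with overlap. Dimmer Tyms probes gave 0.22 without overlap and 0.17 with overlap. No member of this role reached an unadjusted p under 0.05.

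**Figure D3:**
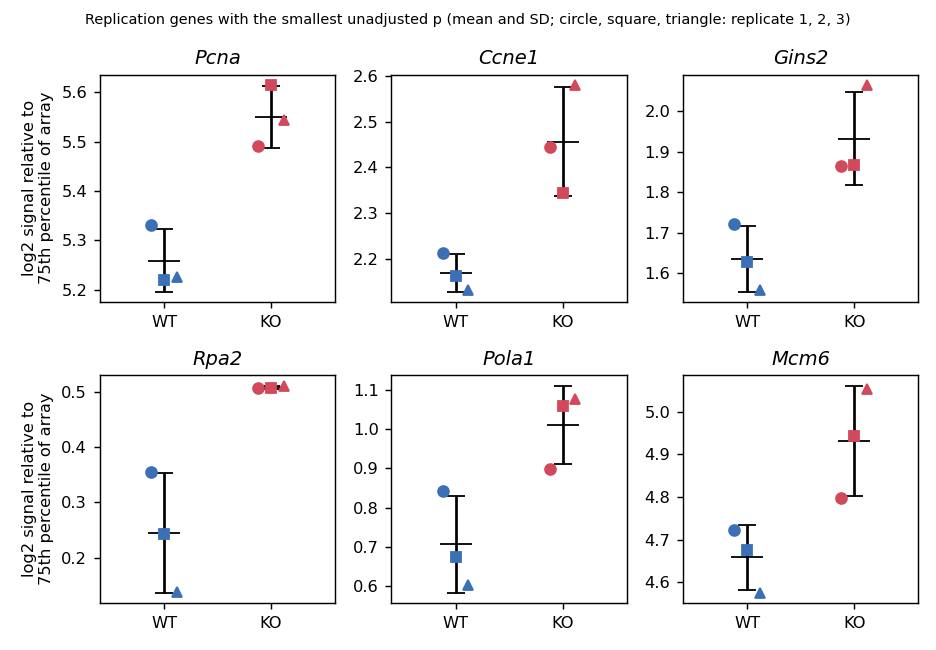
Log2 level relative to the array's 75th percentile (y axis, a separate scale for each gene that does not start at 0) in WT and KO for the 6 members with the smallest unadjusted p. Circle, square and triangle are replicates 1, 2 and 3, and the bar is mean and SD over 3 arrays; none of the 6 genes has overlapping groups, and the gap is narrowest for Pola1 and Mcm6.

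The spread among WT arrays was larger than among KO arrays for most members. The SD over 3 arrays was larger in WT in 26 of 37 members, with medians of 0.13 in WT and 0.078 in KO. Between the KO arrays themselves, KO replicate 3 was higher than KO replicate 1 in 29 of 37 members (median 0.080). Over all genes the same 2 arrays differed by a median of 0.0077.

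Other probes of the same genes gave a second reading of the same RNA. There were 28 tested probes besides the representative ones, of which 26 had a positive difference (median 0.21). Of the 28, 11 had an unadjusted limma p under 0.05, all of them higher in KO. By mean level, the share of all named probes higher at that p ran from 5.84% (2 or more) to 10.2% (below -2). Of 21 members with more than 1 tested probe, 17 had positive differences on every probe. The exceptions were Cdc45, Orc2 (-0.075 and 0.43), Mcm7 (0.19 and -0.083) and Rfc5 (0.24, 0.29 and -0.0011). The widest gaps within a gene on the positive side were those of Mcm10 (0.18 and 0.69) and Orc1 (0.29, 0.61 and 0.13). The Orc1 probe at 0.61 and a Pole probe at 0.46 had the smallest adjusted p of all member probes (limma adjusted p = 0.109 and 0.115), and both are dim, with WT means of -3.35 and -3.31.

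**Figure D4:**
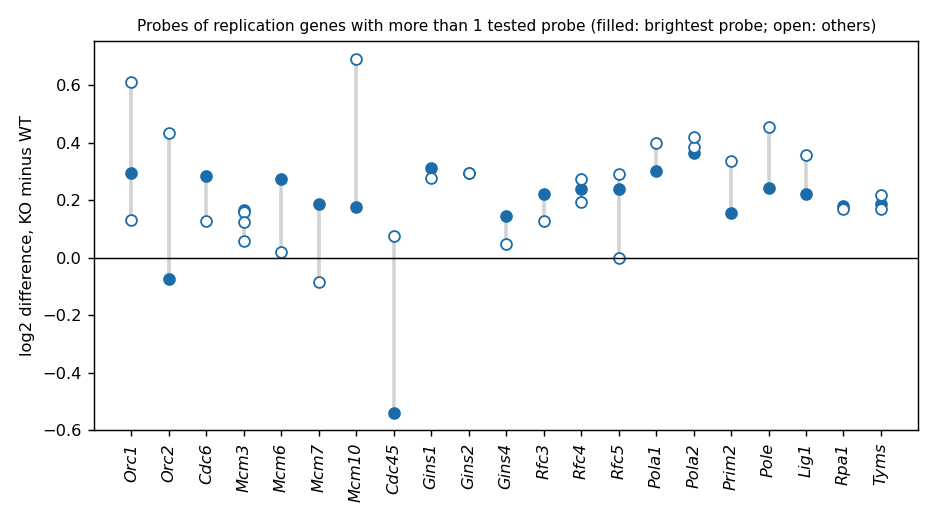
Log2 difference, KO minus WT (y axis), of every tested probe of the 21 members with more than 1 tested probe (x axis). Filled points are the brightest probe of a gene and open points the others; in 17 of the 21 genes every point lies above 0, and Cdc45 and Orc2 have their filled point below it.

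Promoters were looked at because the members mostly had the same sign. RefSeq promoters (GRCm38.p6) were found for 30 of the 38 members, and the 250 bases before the start were searched on both strands. An E2F core (TTTCCCGC, TTTGGCGC, TTTCGCGC or TTTGCCGC) was present in 8 of the 30 genes (26.7%), against 2.16% of 27025 genes in the table. These were Orc1, Cdc6, Mcm5, Mcm6, Mcm7, Gins3, Rfc3 and Pola1. The median difference was 0.28 for these 8 and 0.19 for the 22 without the core. All KO values lay above all WT values in 4 of 8 and 13 of 22 (12.0% of all genes). The CCAAT box was found in 20 of 30 (66.7%; all genes 37.5%), the Sp1 box GGGCGG in 20 (66.7%; all genes 35.4%) and the CHR element (TTTGAA or TTCGAA) in 6 (20.0%; all genes 19.6%).

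The 150 bases before the start are shown for the members with the smallest p that are in the table, so that the helicase gene Mcm6, with 3 E2F cores, can be set beside genes without one. Capitals mark E2F cores and CCAAT boxes, the latter often as ATTGG on the other strand, and 2 of the Mcm6 cores overlap. Each is written 5′ to 3′ on the strand of the gene, with positions chr1:128359706-128359855 for Mcm6, chrX:93632156-93632305 for Pola1, chr2:132253181-132253330 for Pcna, chr4:132768210-132768359 for Rpa2 and chr7:38107491-38107640 for Ccne1.
Mcm6 (minus strand): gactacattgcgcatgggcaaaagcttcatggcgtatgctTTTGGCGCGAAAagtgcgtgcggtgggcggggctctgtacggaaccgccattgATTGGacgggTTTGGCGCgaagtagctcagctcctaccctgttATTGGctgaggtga
Pola1 (minus strand): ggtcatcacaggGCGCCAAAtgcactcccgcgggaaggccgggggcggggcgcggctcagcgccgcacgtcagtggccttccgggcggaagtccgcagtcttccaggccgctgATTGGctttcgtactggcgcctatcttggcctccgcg
Pcna (minus strand): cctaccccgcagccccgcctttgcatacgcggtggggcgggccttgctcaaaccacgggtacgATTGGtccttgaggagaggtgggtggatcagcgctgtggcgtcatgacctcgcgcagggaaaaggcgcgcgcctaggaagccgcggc
Rpa2 (plus strand): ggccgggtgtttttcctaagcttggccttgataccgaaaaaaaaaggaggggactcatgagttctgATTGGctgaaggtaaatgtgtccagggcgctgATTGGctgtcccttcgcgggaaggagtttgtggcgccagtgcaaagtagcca
Ccne1 (minus strand): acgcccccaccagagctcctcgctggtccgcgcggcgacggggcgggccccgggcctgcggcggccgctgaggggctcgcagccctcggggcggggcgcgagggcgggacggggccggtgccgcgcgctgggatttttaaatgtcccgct
Pcna, with the smallest p of the members, holds none of the 4 E2F words in the 250 bases, and Gins3, with a difference of -0.00049, holds 1. These matches describe letters in a window and not bound sites.

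Genes that work beside the members were read from lists of the same pathway. For every list, the shares of all genes at an unadjusted limma p under 0.05 were 6.88% higher and 8.05% lower. All KO values lay above WT in 12.0% of all genes and below in 10.4%. Of 34 other genes of the replication machinery, 31 had a positive difference (median 0.18), with 8 higher and 0 lower at an unadjusted limma p under 0.05 and 0 past the adjusted threshold. The smallest p were those of Mcm9 (0.32), Dna2 (0.36), Chtf18 (0.39) and Pold3 (0.31; limma adjusted p from 0.132 to 0.198 for the 4). WT replicate 3 was lowest in 23 of these 34 as well. Of 28 mitosis genes, all had a positive difference (median 0.28; 9 higher at an unadjusted limma p under 0.05, 0 past the adjusted threshold), and 26 were lowest on WT replicate 3. Among them, Mki67, the proliferation antigen Ki-67, had levels of 4.63, 4.29 and 4.09 in WT and 4.62, 4.53 and 4.74 in KO, so WT replicate 1 lay within the KO range.

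Chromatin assembly and maintenance methylation genes, which restore chromatin behind the fork, had a median of 0.21 over 10 genes, all positive (2 higher at an unadjusted limma p under 0.05, 0 past the adjusted threshold). Hells, a chromatin remodeller, had 0.34 (limma adjusted p = 0.16). The E2F and pocket protein genes had a median of 0.12 over 18. E2f8 (0.38) and E2f7 (0.33), the repressors that are themselves made in S phase, were the 2 with an unadjusted limma p under 0.05 (limma adjusted p = 0.219 and 0.278), and 0 of 18 passed the adjusted threshold. E2f1, the activator, had 0.18, E2f3 0.0067 and Rb1, the retinoblastoma gene, -0.056.

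Nucleotide metabolism genes outside the members had a median of 0.077 over 22, with 2 higher at an unadjusted limma p under 0.05, Dut (0.28), which removes dUTP, and Gart (0.21), an enzyme of purine synthesis. The cyclins and kinases of G1 and S had a median of 0.12 over 13, with 4 higher and 1 lower at that p. The lower one was Ccnd2, a D-type cyclin (-0.27; limma adjusted p = 0.249). The 11 replication checkpoint genes had a median of 0.11, with 0 at that p in either direction. None of these 3 lists had a gene past the adjusted limma threshold.

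The CDK inhibitors, which hold back the cyclin kinases, ran both ways, with a median of 0.10 over 7 genes. Of these, 4 had a positive and 3 a negative difference, with 1 higher and 2 lower at an unadjusted limma p under 0.05. Cdkn2a, which encodes p16 and p19ARF, had levels of 2.92, 2.79 and 3.19 in WT and 2.32, 2.39 and 2.22 in KO (difference -0.65, SE 0.12; limma adjusted p = 0.0887). Cdkn1a, which encodes p21, had -0.43 (SE 0.12; limma adjusted p = 0.169), and both had all KO values below WT. Cdkn1c, which encodes p57, had 0.68 (SE 0.28) with overlap, and 0 of 7 inhibitors passed the adjusted threshold.

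**Figure D5:**
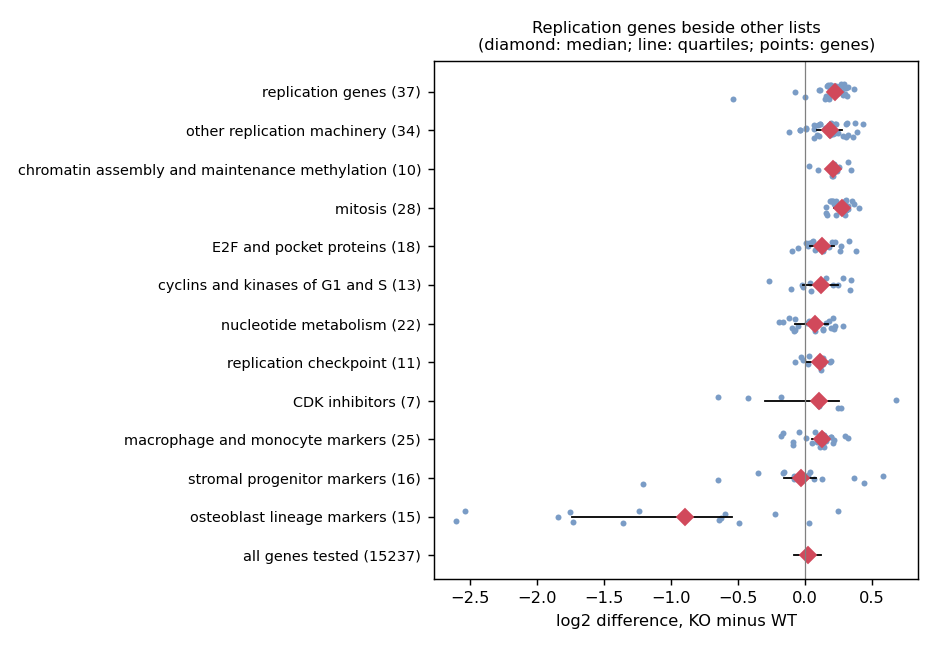
Log2 difference, KO minus WT (x axis), of every tested gene (points) of the members, the related lists and cell type lists (y axis, with the number tested), with the median as a diamond and the quartiles as a line. The members (median 0.22), the other replication machinery (0.18) and mitosis genes (0.28) lie to the right of all genes tested (0.021), and osteoblast lineage markers (-0.90) lie to the left.

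Markers of other cells were read beside the members. Over 25 markers of macrophages and monocytes the median difference was 0.12, with 0 past the adjusted limma threshold. At an unadjusted limma p under 0.05, 2 of them were higher (6.88% of all genes) and 0 lower (8.05%). In 5 of them all KO values lay above WT (12.0% of all genes). Their median deviation from each marker's own mean was -0.024, -0.060 and -0.098 on WT replicates 1 to 3 and 0.022, 0.13 and -0.035 on KO replicates 1 to 3, so these medians overlapped. Their summed linear signal, relative to the 75th percentile, lay between 1708 and 1747 in WT and between 1796 and 1907 in KO, without overlap. The 15 osteoblast lineage markers had a median of -0.90, with summed signals of 1361 to 1483 in WT and 964 to 1281 in KO. Of these 15, 13 had a negative difference, and 12 had all KO values below WT (10.4% of all genes). At an unadjusted limma p under 0.05, 12 were lower (8.05% of all genes) and 1 higher (6.88%). The adjusted threshold was passed by 2 of them, both lower, Ibsp (-1.73) and Phospho1 (-1.36; limma adjusted p = 0.0496 for both). The 16 stromal progenitor markers had a median of -0.029. Which cells the replication transcripts came from, and what part these markers and the array with the lowest values had in the difference, was not tested.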

How the data were processed

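RNA of 3 WT and 3 KO samples was measured on 1-colour Agilent arrays. Per the file headers, the deposited intensity values are the scanner software's background-corrected and detrended signals (Feature Extraction 10.7.1.1), while version 9.1 is named in the submitters' processing notes. Probe positions refer to mm9. Values in the series table were deposited on a log2 scale, with all 6 sorted columns equal to within 0.00278 and a median of 6.15 in each. It served as an alternative; how it was scaled was not stated in the labels.

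Log2 of the processed signal was set relative to each array's 75th percentile over non-control spots. Outlier spots (49 to 131 per array) were left out. Testing required a probe to be well above background in all WT or all KO arrays (28607 probes). Other genes were named through RefSeq accessions (32994 of 56605 probes), symbols (10224) or synonyms (520). Differences were tested with limma 3.58.1 in R 4.3.3 (two-sided, group as the only term) with Benjamini-Hochberg adjustment over all probes tested. The fit was tested on simulated data. The number of arrays limits the precision.

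Groups were taken from the titles. The members and lists were chosen with earlier results of these data known. Named are all members, up to 4 genes per other list with the smallest p, and the E2F, CDK inhibitor and sort genes; Mki67 was named after its values were seen. The lists cover replication, nucleotide metabolism, E2F factors, G1 and S kinases, inhibitors, checkpoint, chromatin, mitosis and cell types. Alternatives changed the background correction, normalization, filter, probe choice, variance model, model terms and samples.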

Additional observations from a re-analysis of the deposited data

How the results depend on the processing

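The number of members past the adjusted limma threshold was 0 in the main analysis and in all 19 alternatives, and the smallest adjusted p of any member in them was 0.0772 (Pcna, variance trend). The median difference of the members stayed between 0.16 and 0.28, beside all-gene medians from -0.0062 to 0.028 (0.090 without the filter on dim probes). At an unadjusted limma p under 0.05, 13 members were higher and 0 lower, beside 6.88% of all genes higher and 8.05% lower. With median centring it was 5 higher and 0 lower (all genes: 684 higher, 4.49%, and 1375 lower). With quantile normalization it was 7 and 0 (all genes: 943, 6.19%, and 1322). A variance trend gave 21 and 0 (all genes: 1274, 8.36%, and 1240). Array weights gave 23 and 0 (all genes: 1259, 8.26%, and 1342). Without the 2 arrays with Xist signal it was 3 higher and 1 lower, beside 750 (4.89%) and 998 of 15346 genes. With all 6 arrays and a term for Xist signal it was 16 and 0 (all genes: 1094, 7.18%, and 1288). Another background correction (normexp) gave 16 and 0 (all genes: 1358, 8.91%, and 1168). Only probes well above background on all 6 arrays gave 17 and 0 (all genes: 1120, 7.89%, and 1069). With dim probes kept in the test, 7 of 38 members were higher at that p (18.4%), below the 24.0% of all genes that were higher there. That share covers 26782 genes, many of them dim, against 15237 in the main analysis. The upper quartile of their differences was 0.53, against 0.12 in the main analysis. All KO values lay above all WT values in 20 of the 38 members there (52.6%) and in 30.7% of all genes. Without WT replicate 3 it was 2 higher and 1 lower (all genes: 790 higher, 5.16%, and 1022 lower). Without WT replicate 1 it was 19 and 0 (all genes: 826, 5.30%, and 1267). Without WT replicate 2 it was 8 and 0 (all genes: 723, 4.72%, and 1056). Leaving out KO replicate 2 gave 6 and 0 (all genes: 802, 5.26%, and 1025). Leaving out KO replicate 3 gave 4 and 0 (all genes: 781, 5.10%, and 1071). With median centring 8 members in place of 20 had groups that did not overlap (7.9% of all genes had all KO above all WT). Leaving out 1 array gave 20 to 29 members with all KO values above WT, while the share of all genes was 16.5% to 19.6% there. Without WT replicate 3, 1 member had all KO values below WT, as did 2050 of 15324 genes. Why these counts moved was not tested. Of 703 single-member values in the alternatives, 698 kept their sign. The others were those of Orc2 when its tested probes were averaged (0.18) or WT replicate 2 was left out, and of Gins3 with array weights (0.021) or when WT replicate 2 or KO replicate 2 was left out. Leaving out 1 array gave -0.14 to 0.059 for Orc2 and -0.036 to 0.042 for Gins3. With the replicate number as a block, 10 members were higher and 0 lower at an unadjusted limma p under 0.05. Of all genes, 1054 (6.92%) were higher and 1273 lower there. The other counts and the median of the members were 0, 20 and 0.22. Same-numbered arrays had correlations of deviations of 0.055, 0.15 and -0.032 over probes, and of 0.50, 0.21 and 0.040 over the members. WT replicate 3 correlated best with KO replicate 1 (0.18 over probes), so the numbers were not taken to pair the samples, although same-numbered arrays share a slide column. Slide and scan could not be fitted as blocks, since all arrays share 1 slide and 1 scan.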

Other observations

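The median difference of the member probes was positive at low and at high levels. Of 10 member probes with a mean level below -2, the median difference was 0.38, with 6 higher at an unadjusted limma p under 0.05 (10.2% of all named probes at that level). Of 22 member probes with a mean level of 2 or more, the median was 0.19, with 6 higher at that p (5.84% of all named probes at that level). The bins were chosen after the data were seen. The lowest level of probes well above background was -4.62 to -4.41 on the WT arrays and -4.15 to -3.60 on the KO arrays. Over all named probes tested below -2 the median difference was 0.0096. Untested probes of Rpa2, Pole and Pola2, well above background on no array, had KO means of -5.72, -5.98 and -5.21. Their WT means were -6.87, -6.55 and -5.72. What part this lowest level had in the differences of dim probes was not tested.

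Among the cell type lists, the 9 osteoclast markers tested had a median difference of 0.23. Tnfrsf11a, the receptor RANK, had 0.40, with all KO values above WT (limma adjusted p = 0.0897), while Ctsk, the protease cathepsin K, had -0.40 (limma adjusted p = 0.238). Median differences were 0.12 for lymphocyte markers (5 of 14 tested), 0.021 for neutrophil and granulocyte precursor markers (6 of 12 tested), 0.25 for erythroid and megakaryocyte markers (5 of 12 tested) and -0.019 for endothelial markers (5 of 10 tested).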
